A study of Mus musculus with 24 samples.

Results

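The genes of oxidative phosphorylation were examined in hippocampal RNA of 24 adult mice. They were chosen by name among protein-coding genes: the numbered Nduf genes of complex I, Sdha to Sdhd of complex II, the Uqcr genes of complex III, Cox4 to Cox8 genes of complex IV, the Atp5 genes of complex V and the 13 protein genes of mitochondrial DNA. The rule found 97 of the 36605 genes in the count table, 84 nuclear and 13 mitochondrial, and used no measured value. Of these members, 93 passed the filter on low counts, 82 nuclear and 11 mitochondrial; Cox8b, Cox8c, mt-Nd4l and mt-Atp8 did not.

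Each of the 4 genotypes was represented by 3 female and 3 male mice. Egr1f NesCre- mice carried Egr1 alleles flanked by loxP sites (the tm1a allele of a C57BL/6N line), Egr1wt NesCre+ mice carried the Nes-Cre transgene of B6.Cg-Tg(Nes-Cre)1Kln/J, Egr1f NesCre+ mice (Egr1cKO) carried both, and Egr1wt NesCre- mice carried neither. Nestin-Cre is active in neural precursors, so that neurons, astrocytes and oligodendrocytes descend from recombined cells while microglia do not. The hippocampus was sequenced as a whole, and fewer cells of a type cannot be told apart from less RNA per cell. The mouse numbers of the Egr1f and the Egr1wt animals come from separate ranges, so floxP and the series of mice cannot be told apart.

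Egr1, the transcription factor deleted here, was measured at 4.90 to 10.2 CPM (counts scaled to a common library size and composition) in Egr1f NesCre+ mice and at 47.6 to 149 CPM in the other mice, without overlap. Counted reads per mouse ran from 18025168 to 34955004. The labels name the cell type as endocrine, but the hormone genes Gh, Prl and Pomc did not exceed 2.31 CPM in any mouse, whereas Camk2a, a kinase of excitatory neurons, was at 3478 CPM or more. Ttr, the main transcript of the choroid plexus, exceeded 100 CPM in 5 mice: 2 Egr1f NesCre- males, 1 female and 1 male of Egr1wt NesCre+, and 1 Egr1f NesCre+ male. Some of the results that differ without these mice are given beside their values.

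Oxidative phosphorylation is the process by which the inner mitochondrial membrane turns the energy of NADH and succinate into ATP. Complexes I to IV pass electrons to oxygen and, apart from complex II, pump protons, and complex V, the ATP synthase, uses the proton gradient to make ATP. Most subunits are encoded in the nucleus and imported, while a small core of complexes I, III, IV and V is made from mitochondrial DNA, so that both genomes must supply each of these complexes. Neurons draw most of their ATP from this pathway.

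The mitochondrial members are shown first by sequence, because they share it with other annotated genes to very different extents. Chromosome 1 holds a stretch of nuclear DNA copied from the mitochondrial genome, annotated in GENCODE M21 (GRCm38, the mm10 assembly of the files) as a row of pseudogenes between chr1:24611535 and chr1:24616197 on the minus strand. Of the 100-base windows of mt-Co2, mt-Co3, mt-Atp6, mt-Nd3 and mt-Nd4l, 99.5%, 99.9%, 99.5%, 97.6% and 98.5% also occurred in another annotated gene. For mt-Nd4 and mt-Co1 the share was 60.8% and 30.8%, for mt-Nd2 3.19%, and for mt-Nd1, mt-Nd5, mt-Nd6 and mt-Cytb 0%. The opening 60 bases of 2 members and of their chromosome 1 copies are shown as they stand in the annotated transcripts, to show how alike they are, with bases that differ in capitals.
mt-Co2: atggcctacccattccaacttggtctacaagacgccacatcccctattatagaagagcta
mt-Nd3: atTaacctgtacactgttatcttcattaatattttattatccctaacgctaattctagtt
Gm28438, the copy of mt-Nd3: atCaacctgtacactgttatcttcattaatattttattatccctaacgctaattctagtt
The copy of mt-Co2, Gm28661, was identical over all 681 bases compared, including those shown. The copy of mt-Nd3 had a single difference in 345 bases, T3C, counted from the first base of mt-Nd3. The copies of mt-Co3, mt-Atp6, mt-Nd4l and mt-Nd4 were identical over 783, 678, 294 and 876 bases. Where the copy of mt-Co1, Gm29216, begins, bases 1054 to 1113 of mt-Co1 are shown beside it, to mark the edge of the copied stretch.
mt-Co1: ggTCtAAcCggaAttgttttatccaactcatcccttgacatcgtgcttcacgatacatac
Gm29216: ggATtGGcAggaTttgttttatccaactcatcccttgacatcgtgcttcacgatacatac
Over its 492 bases that copy had 6 differences, all near its start (T1056A, C1057T, A1059G, A1060G, C1062A and A1066T, counted from the first base of mt-Co1), and was 98.8% identical to mt-Co1.

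The counts of the mitochondrial members fell into separate ranges along the same division. Per kilobase (kb) of transcript, mt-Co1, the catalytic core of complex IV, had the highest counted level of all 97 members, at 11007 CPM per kb ± 1222 (SD, n = 24). mt-Cytb, the mitochondrial subunit of complex III, followed at 6004 CPM per kb ± 854, and mt-Nd1, mt-Nd2, mt-Nd4, mt-Nd5 and mt-Nd6, membrane subunits of complex I, had 5510, 3492, 3019, 2074 and 1263 CPM per kb. mt-Cytb and mt-Nd1 differed by less than their SDs. mt-Nd6 lies on the other strand of mitochondrial DNA, and its reads cannot be told apart from RNA of the opposite strand in these non-stranded libraries.

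In contrast, the other complex IV subunits mt-Co2 and mt-Co3 had 15.3 and 14.3 CPM per kb, and the ATP synthase subunit mt-Atp6 had 11.6. The complex I subunits mt-Nd3 and mt-Nd4l had 2.20 and 0.879 CPM per kb. In raw counts, mt-Co2 had 153 to 354 per mouse and mt-Co1 261763 to 522789. The copy of mt-Co2 was counted at 219 to 497, and mt-Co3 and its copy Gm28437 at 142 to 402 and 139 to 302, whereas the copy of mt-Nd3 was counted higher than the gene, at 795 to 1531 against 7 to 33. How reads that match several places were treated is not given in the sources used here. The levels of these 5 members, their rank among the members and their fold changes are therefore uncertain. The levels of mt-Nd4 and mt-Co1, which share part of their windows, are uncertain too. mt-Atp8 had at most 4 counts in a mouse, and one end of the gene overlaps mt-Atp6. No annotated copy of it was found, but copies without an annotation could not be compared. The annotated copies of mt-Atp6 and mt-Co2 leave chromosome 1 bases between 24614651 and 24614885 without an entry among the copies compared.

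**Figure D1:**
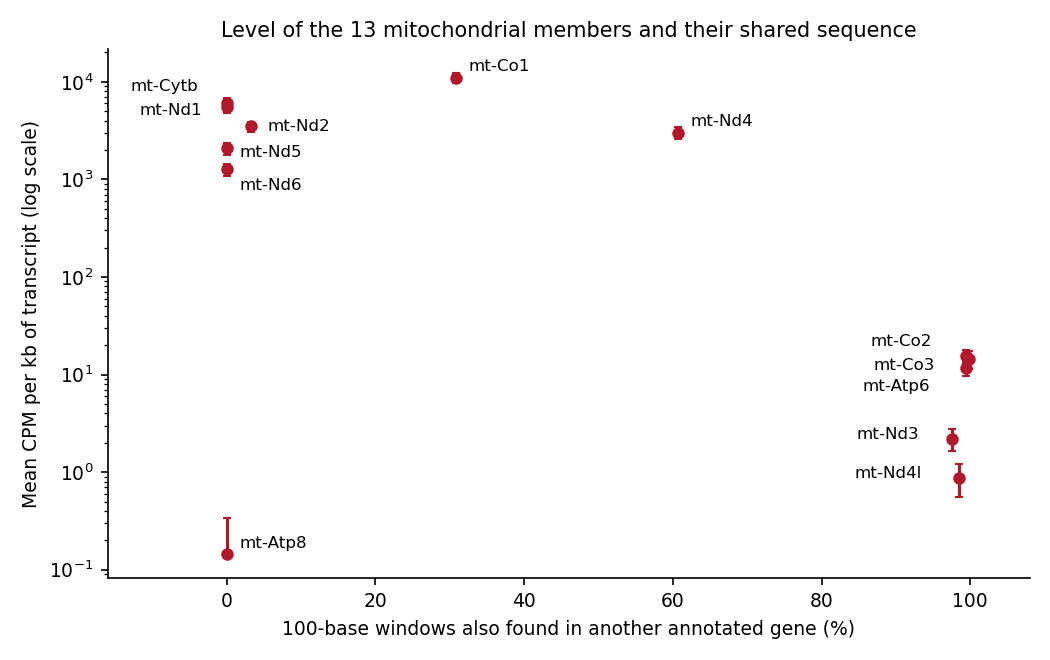
Mean level of the 13 mitochondrial members over 24 mice, in CPM per kb of transcript on a log axis with SD bars (drawn upward only where the SD exceeds the mean), against the percentage of their 100-base windows found in another annotated gene. The 7 members with under 90% shared windows and more than a trace of counts sit between 1263 and 11007 CPM per kb, and the 5 with over 90% sit between 0.879 and 15.3.

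Among nuclear members, levels per kb of transcript spread widely within each complex. In complex V, Atp5b, the catalytic beta subunit, was highest at 486 CPM per kb ± 31.8 (SD, n = 24) and Atp5o, a stalk subunit, lowest at 7.20. The annotation holds a second gene of the same name, and 47.9% of the exonic bases of Atp5o overlap other genes, so its level is uncertain. In complex IV, Cox8a and Cox6a1, the forms of these small subunits used outside muscle, had 493 and 460 CPM per kb. In complex III, Uqcrh, the hinge protein, had 169 and Uqcrb 53.3 CPM per kb. In complex II, the flavoprotein Sdha had 114 and the membrane anchor Sdhc 22.9 CPM per kb. In complex I, the median of 37 genes was 58.4 CPM per kb, from Ndufa4 at 227 to its paralog Ndufa4l2 at 2.15. Ndufa4 is counted here with complex I by name, although its protein is found in complex IV.

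Subunits that exist in tissue-specific forms were nearly all represented by the general form. The forms of heart and skeletal muscle were low, with 2.41 CPM (range 1.23 to 4.65 over 24 mice) for Cox6a2, 0.753 CPM for Cox7a1 and 0.178 CPM for Cox8b. The general forms Cox6a1, Cox7a2 and Cox8a had 263, 88.6 and 271 CPM. The testis forms Cox6b2, Cox7b2 and Cox8c had 1.41, 0.385 and 0.00532 CPM, against 114 and 72.3 CPM for Cox6b1 and Cox7b. Cox4i2, a form known from lung, had 1.00 CPM and the general form Cox4i1 237 CPM. The ATP synthase c subunit, encoded identically in its mature form by 3 genes, came from Atp5g3 at 153, Atp5g1 at 110 and Atp5g2 at 44.7 CPM.

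**Figure D2:**
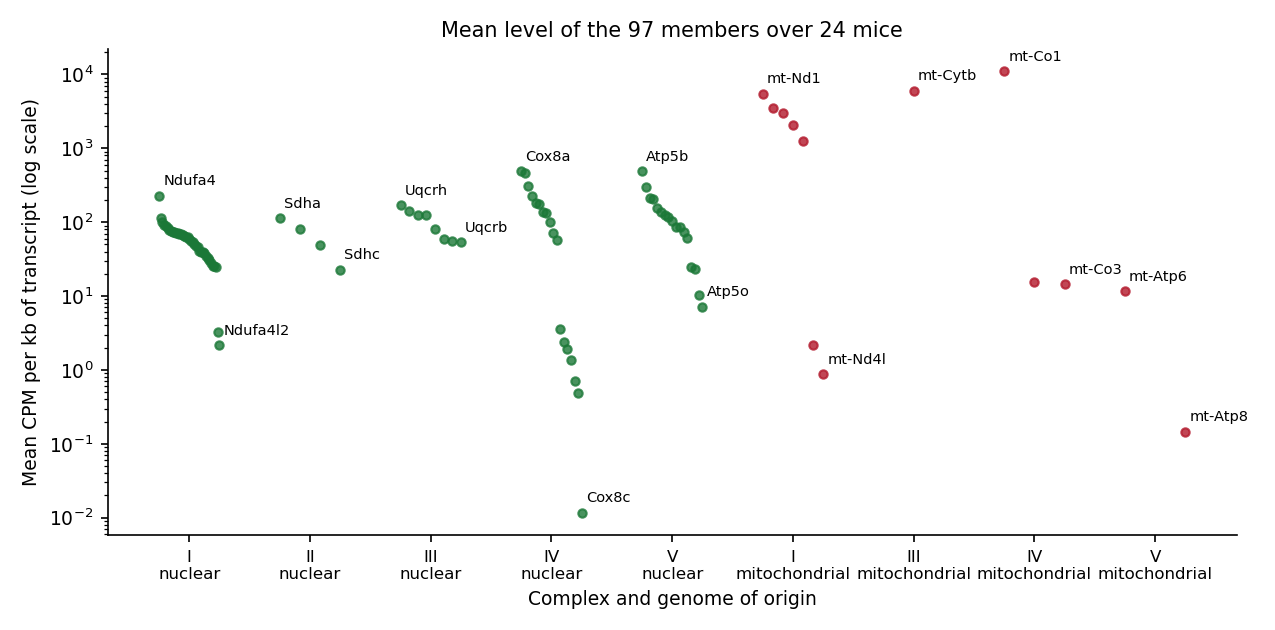
Mean level of each of the 97 members over 24 mice, in CPM per kb of transcript on a log axis, by complex and by genome of origin; points in a column run from highest to lowest and the ends are named. Complex IV holds both the highest nuclear level, Cox8a at 493, and the lowest, Cox8c at 0.0116.

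The summed level of the nuclear members was lowest in Egr1cKO mice, but the ranges of all genotypes overlapped. Their share of counted reads was 0.702%, 0.729% and 0.809% (lowest, median and highest of 6) in Egr1f NesCre+ mice, and 0.709%, 0.780% and 0.811% in Egr1wt NesCre- mice. It was 0.748%, 0.868% and 0.955% in Egr1f NesCre- mice and 0.672%, 0.840% and 0.949% in Egr1wt NesCre+ mice. The means were 0.746% ± 0.0470 (SD, n = 6), 0.771% ± 0.0403, 0.848% ± 0.0770 and 0.826% ± 0.0979 in the same order. The Egr1cKO and wild-type means thus lay within 1 SD of each other, and the mice with a single modification were higher on average and more variable. The lowest mouse of all was male 2 of Egr1wt NesCre+.

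The mitochondrial members took 3.46% to 5.63% of counted reads and did not follow the same order. Nearly all of these counts, and of those in the ratio below, came from the 7 members with under 90% shared windows and more than a trace of counts. The lowest, median and highest shares were 3.66%, 3.70% and 5.26% in Egr1f NesCre+ mice, 3.73%, 4.08% and 4.27% in Egr1wt NesCre-, 3.51%, 4.13% and 4.53% in Egr1f NesCre-, and 3.46%, 4.44% and 5.63% in Egr1wt NesCre+. Egr1f NesCre+ male 3 stood apart at 5.26%, while the other mice of that genotype lay between 3.66% and 3.92%. The log2 ratio of mitochondrial to nuclear counts, which does not depend on the scaling of the libraries, was 2.40 ± 0.16 (SD, n = 6) in Egr1f NesCre+, 2.38 ± 0.10 in Egr1wt NesCre-, 2.26 ± 0.08 in Egr1f NesCre- and 2.44 ± 0.21 in Egr1wt NesCre+ mice. Only Egr1f NesCre- had a mean more than its own SD below the others, and its range of 2.17 to 2.40 overlapped theirs.

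**Figure D3:**
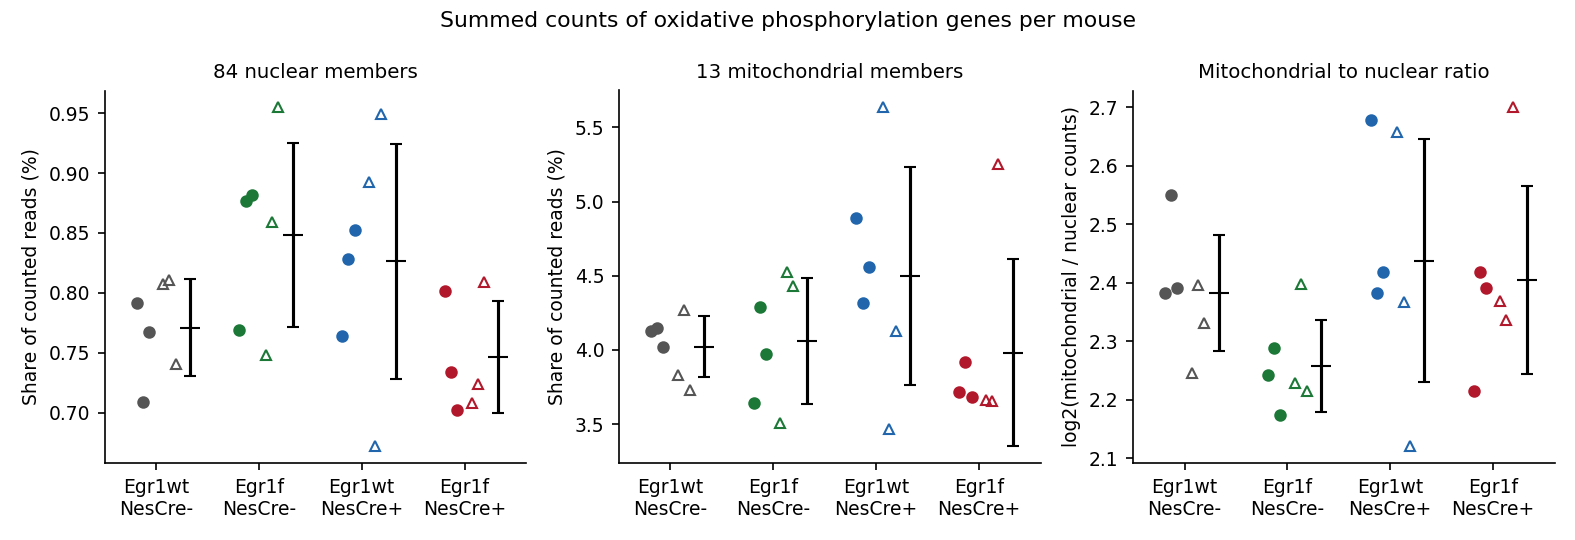
Share of counted reads taken by the 84 nuclear members (left) and the 13 mitochondrial members (middle), and log2 ratio of their summed counts (right), with filled circles for females, open triangles for males and bars for mean ± SD of 6 mice. In the left panel the Egr1f NesCre+ mice lie between 0.702% and 0.809%, inside the range of the Egr1wt NesCre+ mice, and in the middle panel 1 Egr1f NesCre+ male lies at 5.26%, above the other 5.

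The comparison of Egr1cKO mice with Egr1f NesCre- mice holds floxP constant. Its groups differ in the Nes-Cre transgene as well as in Egr1, so effects of the transgene and of Egr1 loss cannot be told apart in it. No member was called at a 1.2-fold or larger change with an adjusted p up to 0.05 (edgeR's quasi-likelihood test with Benjamini-Hochberg adjustment over 18433 genes, of which 0.0326% were called), and the lowest adjusted p of a member was 0.227. At an unadjusted p under 0.05, 39 of 82 nuclear members were lower and none higher, where 7.83% of all genes tested were lower. Of the nuclear members, 77 of 82 had a fold change below 0 on the log2 scale against 50.8% of all genes, with a median of -0.19 against 0.00 for all genes. The 11 mitochondrial members had a median of -0.07, and the 7 with under 90% shared windows a median of 0.00 with 3 below 0. The median of the 11 was -0.17 without Egr1f NesCre+ male 3, -0.04 without Egr1f NesCre+ male 1 or Egr1f NesCre- female 2, and -0.01 without the mice with high Ttr. The difference between nuclear and mitochondrial members was not tested. The count of 39 rested on several mice: it was between 15 and 24 without any 1 of 7 mice (Egr1f NesCre+ males 1 and 2 and females 2 and 3, Egr1f NesCre- females 2 and 3 and male 3), and 3 without the 5 mice with high Ttr, where the nuclear median was -0.13. With another mouse left out, the count rose as high as 52.

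Complex III gave the lowest unadjusted p. Uqcrh (chr4:116066965-116075071, minus strand), the hinge subunit that helps pass electrons to cytochrome c, was at 74.4, 77.8 and 90.2 CPM (lowest, median and highest of 6) in Egr1f NesCre+ and at 80.3, 99.5 and 119 CPM in Egr1f NesCre- mice. All 6 Egr1cKO mice lay below the median of the controls, though the ranges overlapped, and the log2 fold change (log2FC) was -0.32 ± 0.10 (SE; unadjusted p = 0.00305 and adjusted p = 0.227, edgeR). Over all alternatives run, the log2FC of Uqcrh was between -0.38 and -0.23. Uqcr10, a small subunit of the same complex, had a log2FC of -0.31 ± 0.10 (adjusted p = 0.229, edgeR), from 67.6 CPM ± 10.4 to 54.5 CPM ± 5.98 (SD, n = 6 each), and of -0.18 without the mice with high Ttr. In complex III, 7 of 8 nuclear genes were below 0, and 5 of them at an unadjusted p under 0.05.

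In complex IV, Cox6c was at 134, 145 and 160 CPM in Egr1f NesCre+ and at 142, 196 and 212 CPM in Egr1f NesCre- mice, again with all 6 Egr1cKO mice under the control median. Its log2FC was -0.33 ± 0.10 (adjusted p = 0.227, edgeR), and between -0.41 and -0.24 over all alternatives run. Of 16 nuclear complex IV genes tested, 14 were below 0 and 6 at an unadjusted p under 0.05. Complex I had the most, with 36 of 37 nuclear genes below 0, 21 at an unadjusted p under 0.05 and a median of -0.21. Complex II (3 of 4 below 0) included Sdha at a log2FC of 0.00 ± 0.05, and complex V had 17 of 17 below 0 with a median of -0.17. By transcript length, the 30 shortest nuclear members (371 to 680 bases) had a median of -0.21, the 25 of middle length one of -0.22, and the 27 longest (1110 to 4715 bases) a median of -0.16.

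Of the mitochondrial members, mt-Nd5 had the smallest unadjusted p and lay on the other side of 0. It was at 3394, 3736 and 5198 CPM in Egr1f NesCre+ and at 3116, 3441 and 4006 CPM in Egr1f NesCre- mice, with a log2FC of 0.19 ± 0.11 (adjusted p = 0.369, edgeR), and of 0.10 without Egr1f NesCre+ male 3. The most abundant member, mt-Co1, had a log2FC of 0.00 ± 0.09, and mt-Cytb one of -0.04 ± 0.11. The mitochondrial members thus lay on both sides of 0 in this comparison, although the SEs allow differences of about the size seen in nuclear genes.

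The comparison with Egr1wt NesCre+ mice holds the Cre transgene constant and uses the same 6 Egr1cKO mice. Its groups differ in floxP and in the series of mice as well as in Egr1, so these effects cannot be told apart in it. No member was called, with 0.00543% of all genes called and a lowest adjusted p of 0.197 among members (edgeR). Of 82 nuclear members, 75 were below 0 against 52.7% of all genes, with a median of -0.15 against -0.01 for all genes, and 23 were lower at an unadjusted p under 0.05 against 7.18% of all genes. Here the mitochondrial members lay on the same side, 11 of 11 below 0 with a median of -0.21, and a median of -0.16 over the 7 with under 90% shared windows. mt-Nd1 and mt-Nd4 had log2FCs of -0.21 ± 0.09 and -0.22 ± 0.10 (adjusted p = 0.286 and 0.294, edgeR). mt-Co2, with its doubtful counts, had -0.36 ± 0.13 (adjusted p = 0.216, edgeR).

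Atp5l (chr9:44912557-44920742, minus strand), the g subunit in the membrane part of the ATP synthase, had the smallest p. It was at 9.02, 11.4 and 14.3 CPM in Egr1f NesCre+ and at 12.8, 15.4 and 18.1 CPM in Egr1wt NesCre+ mice, and overlapped in range. Its log2FC was -0.44 ± 0.10 (unadjusted p = 0.000104, adjusted p = 0.197, edgeR); against Egr1f NesCre- it was -0.22 ± 0.10. Ndufv2, which binds an iron-sulfur cluster in complex I, had -0.24 ± 0.07 (adjusted p = 0.197, edgeR), at 83.5, 90.1 and 94.7 CPM against 91.3, 106 and 121 CPM. Ndufa6 had -0.30 ± 0.10 (adjusted p = 0.202, edgeR). DESeq2 called Atp5l alone among members (adjusted p = 0.0192; 0.0956% of all genes with a p).

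Male 2 of Egr1wt NesCre+ was the mouse with the lowest nuclear share, and these counts depended on it. Without it, 15 members were called in this comparison, where 5.16% of all genes were called, and the nuclear median was -0.21. Without Egr1f NesCre+ male 3, 1 member, Atp5l, was called (0.585% of all genes). The count of 23 was 47 without Egr1wt NesCre+ male 2, 6 to 15 without any 1 of 7 other mice (Egr1wt NesCre+ females 2 and 3 and males 1 and 3, Egr1f NesCre+ males 1 and 2 and female 3), and 10 without the mice with high Ttr. Without a filter on low counts, 11 members were called against Egr1f NesCre- (2.19% of all genes), 4 against Egr1wt NesCre+ (2.17%), 1 against the other 3 genotypes (1.69%) and 2 for Egr1f NesCre- against Egr1wt NesCre- (0.224%).

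Most nuclear members lay above their level in Egr1wt NesCre- mice, the common reference of the next comparisons, in mice with either single modification, though none was called. Egr1f NesCre- against Egr1wt NesCre- had a nuclear median of 0.16, with 6 of 82 below 0 against 49.2% of all genes and 18 higher at an unadjusted p under 0.05 against 4.02% of all genes. Atp5d, the delta subunit of the ATP synthase, had the smallest p in it, at 150, 186 and 219 CPM against 144, 151 and 159 CPM, a log2FC of 0.27 ± 0.09 (adjusted p = 0.688, edgeR), or 0.18 without the mice with high Ttr. Ndufa3 of complex I and Uqcrc1, a core protein of complex III, had 0.30 ± 0.11 and 0.17 ± 0.07, Uqcrc1 0.11 without the mice with high Ttr. The mitochondrial median was 0.01, -0.02 to 0.04 with 1 mouse left out and -0.05 without the mice with high Ttr. Egr1wt NesCre+ against Egr1wt NesCre- had a nuclear median of 0.12, with 8 of 82 below 0 against 47.3% of all genes and 5 higher at an unadjusted p under 0.05 against 3.31% of all genes. Cox5a, a matrix subunit of complex IV, had the smallest p in it, with 0.25 ± 0.09 (adjusted p = 0.763, edgeR). The nuclear median was 0.18 without Egr1wt NesCre+ male 2 and 0.07 without Egr1wt NesCre+ male 3, with 5 and 18 below 0; without Egr1wt NesCre+ female 3, Egr1wt NesCre- male 3 or Egr1wt NesCre- female 2, 13 or 14 were below 0. All 11 mitochondrial members were above 0 there, with a median of 0.15, which was 0.08 without Egr1wt NesCre+ male 1. The count of 18 was 2 to 9 without any 1 of 6 mice (Egr1wt NesCre- male 3 and females 2 and 3, Egr1f NesCre- females 2 and 3 and male 3), 29 to 38 without any 1 of 3 (Egr1f NesCre- male 1 and female 1, Egr1wt NesCre+ male 2), and 0 without the mice with high Ttr, where the nuclear median was 0.10. The count of 5 was 43 without Egr1wt NesCre+ male 2, 8 or 11 without Egr1wt NesCre- male 1 or Egr1wt NesCre+ female 1, and 2 or 3 without any 1 of 4 others (Egr1wt NesCre+ males 1 and 3, Egr1wt NesCre- male 3 and female 2). Not a single gene, member or other, was called by edgeR in these comparisons (0% of all genes), while 1285 genes with floxP and 1117 with Nestin-Cre had an unadjusted p under 0.05, and DESeq2 called 5 and 8 genes, none of them a member.

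Egr1f NesCre+ against Egr1wt NesCre- mice, a comparison added after the data were seen, gave medians near 0. The nuclear median was -0.03 (-0.08 to -0.01 with 1 mouse left out), 63 of 82 were below 0 against 48.8% of all genes, 1 member (Atp5l, log2FC -0.20 ± 0.10) had an unadjusted p under 0.05, and none was called (0.0217% of all genes called; lowest adjusted p of a member 0.848, edgeR). Uqcrh was at 81.5, 90.7 and 97.6 CPM in wild-type mice, between the other controls and Egr1cKO. Against the other 3 genotypes together, the nuclear median was -0.13 with 78 of 82 below 0, and no member was called (0.0217% of all genes called; lowest adjusted p 0.189, edgeR). There, Uqcrh was called without Egr1wt NesCre+ male 2 (0.436% of all genes called) and Atp5l without Egr1f NesCre+ male 3 (1.22%), where the mitochondrial median was -0.22 in place of -0.11.

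**Figure D4:**
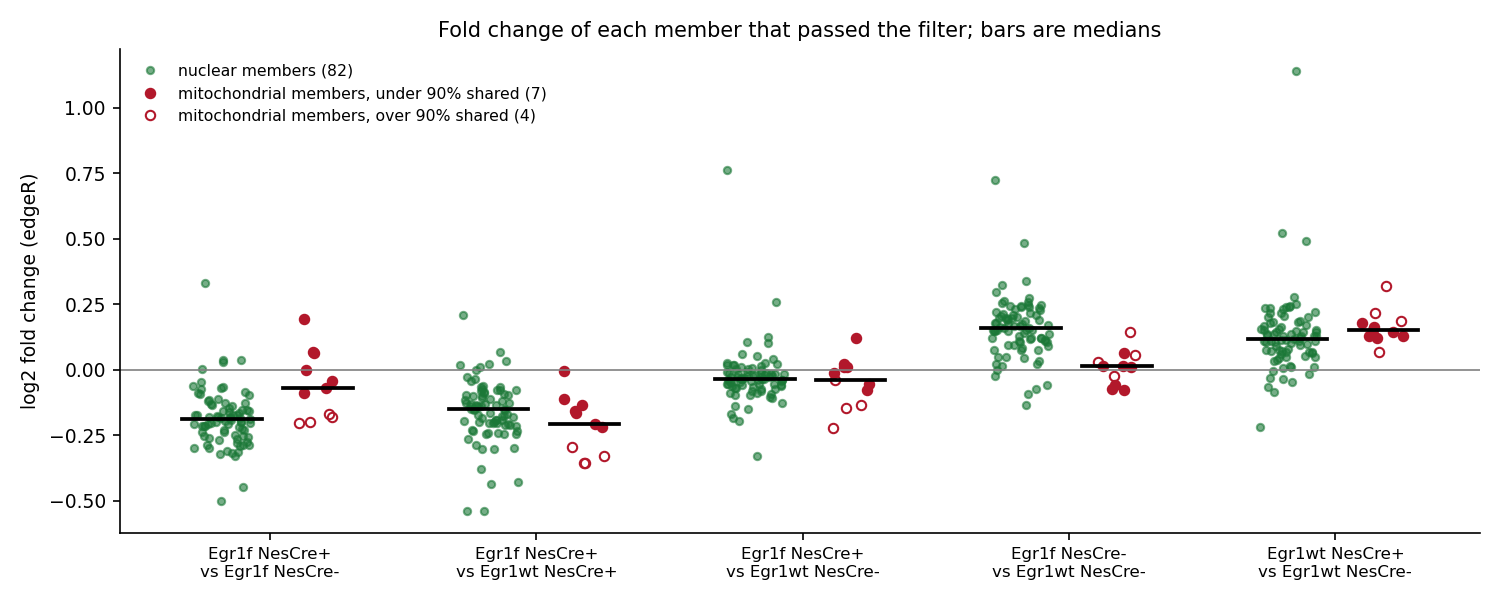
log2FC of each member that passed the filter in 5 comparisons, with green points for the 82 nuclear members, filled red points for the 7 mitochondrial members with under 90% shared windows, open red points for the 4 with over 90%, and bars at the medians of the nuclear and of all 11 mitochondrial members. The nuclear medians are -0.19, -0.15 and -0.03 in the comparisons of Egr1f NesCre+ and 0.16 and 0.12 in those between controls.

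The interaction of floxP and Nestin-Cre asks whether both together differ from the sum of each alone. For nuclear members its median was -0.32, with 78 of 82 below 0 against 52.8% of all genes and 48 lower at an unadjusted p under 0.05 against 9.31% of all genes. Ribosomal protein genes had a median of -0.36 in it (80 of 81 below 0). Other protein-coding genes with under 1 kb of exon had one of -0.32 (204 of 251 below 0). Over all alternatives run, this nuclear median was between -0.38 and -0.22. Uqcr10 had the smallest p, at an interaction of -0.54 ± 0.15 (log2 scale; unadjusted p = 0.000999, adjusted p = 0.150, edgeR), followed by Atp5l at -0.46 ± 0.13 and Uqcrh at -0.45 ± 0.14. The mitochondrial median was -0.22, and -0.12 over the 7 with under 90% shared windows. No member was called by edgeR (0.00543% of all genes), whereas DESeq2 called 5, Uqcrh, Atp5d, Cox7a2, Cox6c and Ndufb10 (0.916% of all genes with a p). Without Egr1wt NesCre+ male 2 edgeR called 35 members (8.11% of all genes), without Egr1f NesCre- male 1 it called 4 (1.74%), and with no filter on low counts 23 (3.20% of all genes). Without the mice with high Ttr, 12 nuclear members were lower at an unadjusted p under 0.05, Uqcr10 was at -0.36 and the mitochondrial median was -0.15.

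No difference between female and male mice was called for these genes. Over both genomes no member passed (0.076% of all genes; lowest adjusted p 0.828, edgeR), none had an unadjusted p under 0.05, and the nuclear median of females against males was -0.03. Egr1f NesCre+ against Egr1f NesCre- gave a nuclear median of -0.18 in females and -0.20 in males, and mitochondrial medians of -0.11 and -0.02. With 1 mouse left out, the nuclear median ran from -0.28 to -0.12 in females and from -0.29 to -0.09 in males. The end at -0.28 was reached without Egr1f NesCre+ female 1 and that at -0.09 without Egr1f NesCre- male 3. No member was called in either sex (0.0163% and 0.00543% of all genes), and none for the difference between the sexes (0% of all genes; lowest adjusted p 1.00, edgeR, with 1 member, Uqcrc2, among 812 genes at an unadjusted p under 0.05, and 3 genes called by DESeq2). In males alone, leaving out the mice with Ttr above 100 CPM left 1 Egr1f NesCre- male and a nuclear median of 0.04.

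Other gene sets varied with the nuclear members from mouse to mouse. The share of counted reads of 838 other protein-coding genes with under 1 kb of exon, a set chosen after the data were seen, followed the nuclear share with Pearson's r = 0.978 and Spearman's rho = 0.983 over 24 mice, and r = 0.970 for deviations from the genotype means. Ribosomal protein genes followed it with r = 0.965, and 80 of 81 of them tested were below 0 in Egr1f NesCre+ against Egr1f NesCre-, with a median of -0.22. The short genes had a median of -0.17 there, with 189 of 251 tested below 0, and mitochondrial ribosomal protein genes, which are nuclear, one of -0.13. In Egr1f NesCre+ against Egr1wt NesCre- the medians were -0.07 for ribosomal proteins and -0.01 for short genes. Against Egr1wt NesCre+ they were -0.20 and -0.15 in the same order. They were 0.15 and 0.17 in Egr1f NesCre- against Egr1wt NesCre- mice, and 0.14 and 0.12 in Egr1wt NesCre+ against Egr1wt NesCre- mice. The mitochondrial share followed the nuclear one less closely, with r = 0.531 and rho = 0.657. These shares come from the same libraries and depend on the same totals, and counted reads per mouse had an r of -0.101 with the nuclear share.

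**Figure D5:**
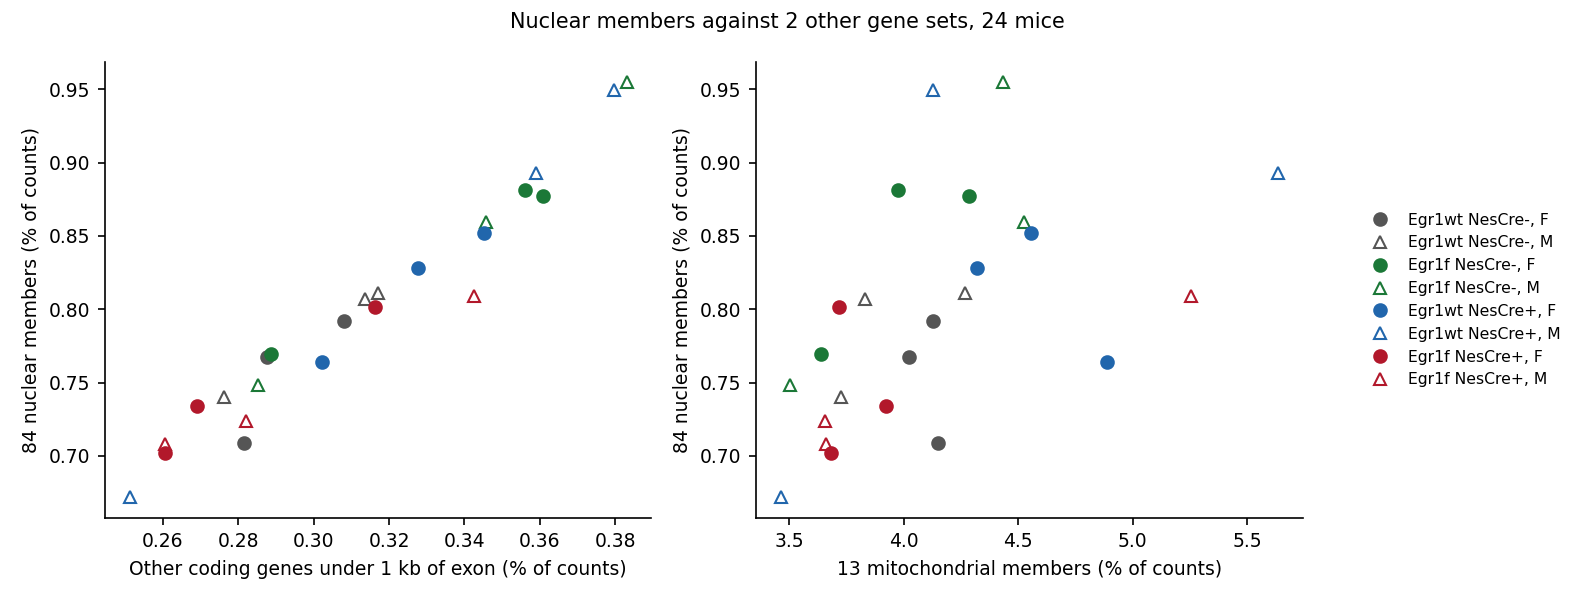
Share of counted reads of the 84 nuclear members in 24 mice against that of 838 other protein-coding genes with under 1 kb of exon (left) and of the 13 mitochondrial members (right), with genotype by colour, filled circles for females and open triangles for males. The left points follow a narrow line (r = 0.978), the right points scatter (r = 0.531), and Egr1wt NesCre+ male 2 is lowest in both.

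Variation between mice also differed among the nuclear members by transcript length. The coefficient of variation (CV) over 24 mice had a median of 14.9% in the 30 shortest and of 9.43% in the 27 longest, with Spearman's rho = -0.619 between length and CV across 82 genes, which are not independent replicates. Ndufs1, Atp5a1 and Sdha, large subunits of complexes I, V and II, had CVs of 4.23%, 4.76% and 5.08%. Ndufa2, Uqcr11 and Ndufa1, all small subunits, had 20.5%, 19.3% and 18.5%.

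Cell type markers were counted in the same mice. The summed level of 7 oligodendrocyte genes was 3348 to 4801 CPM in Egr1f NesCre+, 4134 to 5652 in Egr1wt NesCre-, 4130 to 6089 in Egr1f NesCre- and 4120 to 6339 in Egr1wt NesCre+ mice. That of 7 astrocyte genes was 4029 to 5639, 3909 to 5345, 3709 to 5353 and 3705 to 5300 CPM in the same order. No gene of either list was at 0 in every mouse. All 7 oligodendrocyte genes were below 0 in Egr1f NesCre+ against Egr1f NesCre-, with a median of -0.21 and none called, and the astrocyte genes had a median of 0.21. Of the 10 excitatory neuron genes, none was called in any comparison, and of the astrocyte genes 1, Aqp4, was higher in Egr1f NesCre+ than in Egr1f NesCre- mice (log2FC 0.82 ± 0.11, adjusted p = 0.000608, edgeR). The microglial genes summed to 291 to 351, 249 to 309, 270 to 304 and 241 to 320 CPM, and the endothelial and pericyte genes to 261 to 291, 175 to 298, 206 to 273 and 178 to 305 CPM, in the order above. The means of both were highest in Egr1f NesCre+ mice, with overlap, and none of their genes was called. In the same order, excitatory neuron genes summed to 6431 to 8652, 6822 to 8657, 6625 to 8157 and 5474 to 8128 CPM. Inhibitory neuron genes summed to 557 to 761, 576 to 692, 620 to 732 and 569 to 731 CPM. The means of both neuron lists and of the astrocyte genes were also highest in Egr1f NesCre+ mice, and those of oligodendrocyte and blood genes were lowest. The part of these cell types, and of the 5 mice with high Ttr, in the levels of the members was not tested.

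In Egr1f NesCre+ against Egr1f NesCre- mice, 50.8% of all genes were below 0 and 0.0326% were called. The genes around the pathway mostly lay on the same side of 0 as the nuclear members there, and were not called either. The exceptions were the transcriptional regulators and, with a median near 0, the genes that maintain mitochondrial DNA and RNA. Of 45 assembly factors, 44 were tested, with 35 below 0 in Egr1f NesCre+ against Egr1f NesCre- and a median of -0.09. Of the genes for electron carriers and their partners, such as cytochrome c, 18 of 20 tested were below 0 with a median of -0.13, and of the TCA cycle 10 of 13 with a median of -0.06. Glycolysis had 14 of 16 below 0 with a median of -0.11. The 24 genes tested that maintain mitochondrial DNA and RNA had 15 below 0 and a median of -0.03. Of the 15 transcriptional regulators of respiration, among them Nrf1, Gabpa and the coactivator Ppargc1a, 6 were below 0 with a median of 0.03. Not a member of these 6 lists was called in any of the comparisons (edgeR).

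Promoter sequences were read for the nuclear members, because most of them lay on the same side of 0. RefSeq (GRCm38.p6) gave 250 bases before and 50 after the start for 68 of 84, and these were searched on both strands for 6 motifs beside 17492 protein-coding genes. The NRF1 palindrome occurred in 5 of 68 (7.35%, against 1.47% of all coding genes), the ETS core CCGGAAG bound by GABP in 16 (23.5% against 12.9%), and the YY1 motif AAGATGGC in 10 (14.7% against 3.57%). The EGR1 motif GCGTGGGCG occurred in none (against 0.955%) and its form GCGGGGGCG in 1, Atp5g2 (1.47% against 4.42%). The SP1 motif GGGGCGGGG, which can overlap that form, occurred in 12 (17.6% against 17.3%). No match says only that these letters are not in this window. The promoters of Uqcrh, with an ETS core, and Atp5l, with a pair of them, are shown with matches in capitals. For Egr1f NesCre+ mice, Uqcrh had the smallest p of the members against Egr1f NesCre- and Atp5l the smallest against Egr1wt NesCre+. The promoter of Atp5g2 is shown in the same way because it held the EGR1 letters beside an NRF1 palindrome.
Uqcrh, chr4:116075021-116075320, minus strand: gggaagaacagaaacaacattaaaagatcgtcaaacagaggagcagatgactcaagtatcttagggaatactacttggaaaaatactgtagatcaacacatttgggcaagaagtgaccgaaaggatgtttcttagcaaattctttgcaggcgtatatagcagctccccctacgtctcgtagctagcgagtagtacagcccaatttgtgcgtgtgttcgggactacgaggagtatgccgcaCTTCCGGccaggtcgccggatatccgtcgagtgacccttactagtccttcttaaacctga
Atp5l, chr9:44920693-44920992, minus strand: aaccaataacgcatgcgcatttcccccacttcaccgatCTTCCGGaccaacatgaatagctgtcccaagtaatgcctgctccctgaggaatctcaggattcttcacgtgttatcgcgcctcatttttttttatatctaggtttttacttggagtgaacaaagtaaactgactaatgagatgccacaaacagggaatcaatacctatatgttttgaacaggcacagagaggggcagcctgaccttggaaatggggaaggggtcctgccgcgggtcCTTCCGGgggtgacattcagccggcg
Atp5g2, chr15:102670998-102671297, minus strand: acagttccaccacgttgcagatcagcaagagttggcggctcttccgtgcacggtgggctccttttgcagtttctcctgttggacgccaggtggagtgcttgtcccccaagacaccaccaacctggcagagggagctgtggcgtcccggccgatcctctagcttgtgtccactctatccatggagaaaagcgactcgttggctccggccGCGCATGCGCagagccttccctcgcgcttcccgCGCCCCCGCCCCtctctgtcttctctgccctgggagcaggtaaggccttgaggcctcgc
Atp5g2, the member with the EGR1 letters, was at 44.7 CPM on average, with a log2FC of -0.18 ± 0.08 against Egr1f NesCre- and of -0.20 ± 0.08 against Egr1wt NesCre+ mice. The medians of all nuclear members tested were -0.19 and -0.15 in these comparisons. The marked stretch with the EGR1 letters also holds the SP1 motif.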

How the data were processed

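RNA of the hippocampus (polyA-selected, non-stranded, paired reads) was measured in 24 mice. The deposited values are raw counts per Ensembl gene, which the authors made from reads trimmed with Trim Galore 3.8.2 and aligned with STAR 2.7.9 to GRCm38, per the labels (the methods of the study name other versions of both tools). The treatment of multi-mapped reads is not given in the sources used here. Counted reads ranged from 18025168 to 34955004 per mouse. Symbols, coordinates and lengths came from GENCODE M21, and promoters from RefSeq (GRCm38.p6).

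Counts were filtered (filterByExpr, minimum count 10), scaled by TMM and tested with edgeR 4.0.16 (quasi-likelihood F test, two-sided) in R 4.3.3, over all 24 mice with genotype and sex as terms, or with 8 groups within sexes. Genes were called at a 1.2-fold or larger change with a Benjamini-Hochberg adjusted p no greater than 0.05 over all genes tested, and interactions by the adjusted p only. SEs were derived from the log2FC and F. The tests were checked on simulated counts. P-values measure the spread between these mice. CPM per kb used the principal transcript. Genes were named by a rule: per comparison, the 3 nuclear members and the mitochondrial member with the lowest p, then the mitochondrial members, the highest and lowest nuclear member of each complex, tissue-restricted isoforms, called genes of the other lists, and Egr1. Members named for their variation or promoter, and others compared with them, were chosen after their values were seen. The members and lists were chosen with earlier results of these data known. Alternatives were other scalings, no filter, DESeq2 1.42.0, only the mice compared, no covariate, a replicate block and each mouse left out. The comparison of Egr1f NesCre+ with Egr1wt NesCre-, the set of short genes and the alternative without mice of high Ttr were chosen after seeing the data. No pair of the 24 pairs of mice of 1 sex and genotype agreed within sampling noise.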

Additional observations from a re-analysis of the deposited data

Results flagged for a closer look

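The mitochondrial members of Egr1f NesCre+ male 3 stood apart from the other 5 mice of its genotype. Their share of counted reads was 5.26% in this mouse and 3.66% to 3.92% in the others, a gap larger than Dixon's limit for 6 mice. The same mouse was highest in mt-Co1 (20484 CPM against 15018 to 16658), mt-Cytb (8916 against 5865 to 6499), mt-Nd1 (6591 against 4295 to 4742), mt-Nd2 (4308 against 3269 to 3568), mt-Nd4 (5249 against 3496 to 3746) and mt-Nd6 (908 against 546 to 648), and in mt-Co2 (12.1 against 8.58 to 9.22). These members are not independent of each other, since all come from 1 genome and 1 library.

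Egr1wt NesCre+ male 2 was lowest in mt-Nd6, at 549 CPM against 720 to 810 in the other mice of its genotype. Egr1f NesCre- female 2 had 0.724 CPM of Cox6b2 against 1.49 to 1.87. Egr1wt NesCre- male 1 had 0.340 CPM of mt-Nd3 against 0.752 to 0.949, and 0.0971 CPM of mt-Nd4l against 0.246 to 0.314. Among members at the limit of detection, Cox8b had 1.35 CPM in Egr1f NesCre- male 3 against 0.0489 to 0.341, Cox8c 0.128 CPM in Egr1wt NesCre+ male 3 against 0 in the others, and mt-Atp8 0.117 CPM in Egr1f NesCre- male 1 against 0 to 0.0422. In all, 15 of 216 groups of 6 mice passed this limit, which chance alone passes in about 1 group in 20.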

How the results depend on the processing

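Alternatives were run for the genes with the lowest p of each comparison, whose fold changes kept their sign, apart from Uqcr10 in males, at 0.0035 (log2) without the mice with Ttr above 100 CPM, an alternative chosen after seeing the data; it leaves 1 Egr1f NesCre- male, which is assumed to vary like the other groups. In the same alternative, Egr1f NesCre+ against Egr1f NesCre- in males had medians of 0.0357 for nuclear and 0.27 for mitochondrial members, and the difference between the sexes medians of -0.24 and -0.20.

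Without a filter on low counts, the numbers of members called were 11 against Egr1f NesCre- (2.19% of all genes), 4 against Egr1wt NesCre+ (2.17%) and 1 against the other 3 genotypes (1.69%). They were 23 for the interaction (3.20%) and 2 for Egr1f NesCre- against Egr1wt NesCre- (0.224%). DESeq2 called 1 against Egr1wt NesCre+ (0.0956% of all genes with a p) and 5 for the interaction (0.916%). When each mouse was left out in turn, 0 to 15 members were called against Egr1wt NesCre+ (15 where 5.16% of all genes were called), 0 to 1 against the other 3 genotypes (1 where 0.436% or 1.22% were) and 0 to 35 for the interaction (35 where 8.11% were). The mitochondrial median then ran from -0.172 to -0.0352 against Egr1f NesCre-, from -0.22 to -0.0806 against the other 3 genotypes, from -0.149 to -0.0027 against Egr1wt NesCre-, from -0.18 to 0.0818 against Egr1f NesCre- in females and from -0.19 to 0.0646 in males, from 0.0802 to 0.218 for Egr1wt NesCre+ and from -0.0246 to 0.0422 for Egr1f NesCre- against Egr1wt NesCre-, the ends at -0.172, -0.22, -0.149 and -0.19 being reached without Egr1f NesCre+ male 3 and that at 0.0818 without Egr1f NesCre- female 2. The causes were not tested. As a mean log2 difference over members in place of a ratio of sums, the mitochondrial to nuclear value was 2.91 in Egr1wt NesCre-, 2.78 in Egr1f NesCre-, 2.95 in Egr1wt NesCre+ and 2.91 in Egr1f NesCre+ mice.

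Mice of different genotypes that share a replicate number share nothing else by the labels, and their deviations correlated at -0.0143 on average over 36 pairs, of which 7 exceeded 0.1, so the numbers did not pair the mice. With the replicate number within sex as a block, 0 members were called in each comparison, and 36 nuclear members in place of 39 were lower at an unadjusted p under 0.05 in Egr1f NesCre+ against Egr1f NesCre- mice. Members under about 1 CPM, such as Cox8b and mt-Atp8, were limited by depth.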
